A study of Mus musculus with 20 samples.

Results

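The genes described here are 9 markers of brain pericytes, Rgs5, Pdgfrb, Abcc9, Kcnj8, Anpep, Vtn, Higd1b, Notch3 and Ndufa4l2, each matched by its symbol to 1 row of a deposited table of 45700 mouse genes. They were chosen by name, to see whether Rgs5 was lower in the brain of mice with spinal muscular atrophy (SMA) together with other pericyte genes. The “Taiwanese” SMA mice are null for the mouse Smn gene and carry the human SMN2 transgene (Smn-/-; SMN2tg/0), and by the methods of the study the controls were heterozygous littermates with the same transgene (Smn-/+; SMN2tg/0), all on a congenic FVB background. Loss of Smn and the transgene affect every cell type of these mice, so the model is not limited to blood vessels. Whole brain was taken on postnatal day 5, the early-symptomatic stage, with 2 replicates per genotype, and on day 7, the late-symptomatic stage, with 3. Total cytoplasmic RNA (all fractions of a sucrose gradient) and polysomal RNA (the polysome fractions only) were sequenced in each replicate number, which gave 20 libraries. The labels do not say whether both fractions of a number came from the same brain. Values are FPKM, fragments scaled to the length of the transcript and to the mapped fragments of the library, so that levels can be compared between genes. Without counts in the table, the depth behind a single value is unknown.

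Pericytes sit on the outside of capillaries, inside the basement membrane that they share with endothelial cells. In brain they help to form and keep the blood-brain barrier, and endothelial PDGF-B recruits them through its receptor PDGFRβ, encoded by Pdgfrb. Together with the smooth muscle cells of larger vessels they are called mural cells, and most pericyte markers are found to some degree in both. In RNA from whole brain, fewer cells of a type and less RNA per cell cannot be told apart.

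The targeted gene was looked at first. In total RNA, Smn1 stood at 9.71 and 8.92 FPKM in the control libraries of day 5 and at 9.55 and 10.09 FPKM in the SMA libraries, and on day 7 at 13.6 to 16.7 FPKM in control against 11.9 to 17.5 FPKM in SMA. Its polysomal values on day 7 spanned 11.9 to 13.3 FPKM in control and 13.1 to 14.2 FPKM in SMA, and the genotypes overlapped in all 4 settings. The knockout allele of this line loses only a short part of the gene near its end, and a value for the whole gene also takes in the rest, so these values check no genotype label. The genotypes are therefore those of the labels.

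Of the 9 genes, 8 averaged 1 FPKM or more over all libraries and were tested along with the rest of 15247 such genes. Anpep, at a mean of 0.998 FPKM, fell just below this limit. In each of the 4 comparisons of SMA with control (total and polysomal RNA, days 5 and 7), 6 of the 8 tested genes, Rgs5, Higd1b, Vtn, Kcnj8, Abcc9 and Pdgfrb, were lower in every SMA library than in every control library. Over all tested genes this held for 163, or 1.07%. Notch3, Ndufa4l2 and Anpep did not share this pattern. The sum of all 9 genes in SMA was 65.6% of control in total RNA and 62.4% in polysomal RNA on day 5, and 59.6% and 58.4% on day 7. Rgs5 and Vtn were the most abundant of the 9 and weigh most in this sum.

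**Figure D1:**
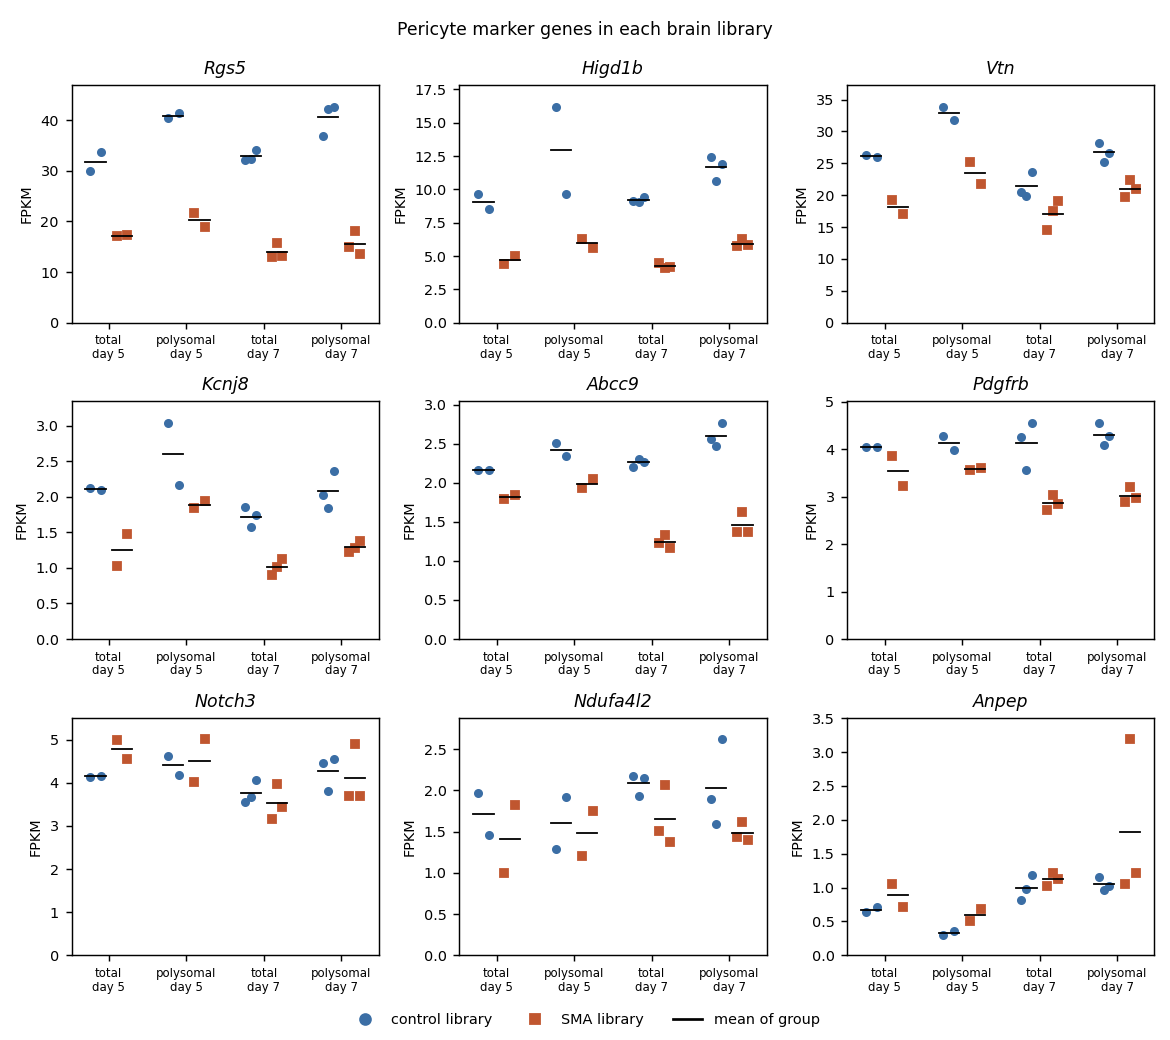
FPKM (vertical axes, starting at 0) of the 9 pericyte marker genes in each of the 20 libraries, grouped by RNA fraction and postnatal day, with circles for control, squares for SMA and bars for group means. The SMA libraries of Rgs5, Higd1b, Vtn, Kcnj8, Abcc9 and Pdgfrb lie below the control libraries in all 4 groupings. Those of Notch3, Ndufa4l2 and Anpep do not.

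Genes were called at an unadjusted p under 0.05 in limma, and Benjamini-Hochberg adjusted p values over all tested genes are given beside the calls. In day 5 total RNA, 4 of the 8 tested genes fell (Rgs5, Higd1b, Vtn and Kcnj8), where 3.89% of all tested genes fell. In day 5 polysomal RNA 3 fell (Rgs5, Higd1b and Vtn), against a background of 6.82%. On day 7, 6 fell in total RNA (background 4.70%) and 6 in polysomal RNA (background 5.38%), namely the 6 genes named above in both, and none rose in any of the 4 comparisons. Rgs5, Higd1b and Vtn fell in all 4, as did 0.407% of all tested genes. After adjustment, Higd1b and Rgs5 stayed under 0.05 in day 7 total RNA, where 0.111% of genes did. No member did in the other comparisons, where 0.164% (day 5 total), 0.649% (day 5 polysomal) and 0.0918% (day 7 polysomal) of genes did. The median log2 fold change of the 8 genes was -0.42 and -0.35 in total and polysomal RNA on day 5 and -0.61 and -0.57 on day 7, against medians between -0.01 and 0.01 over all tested genes.

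**Figure D2:**
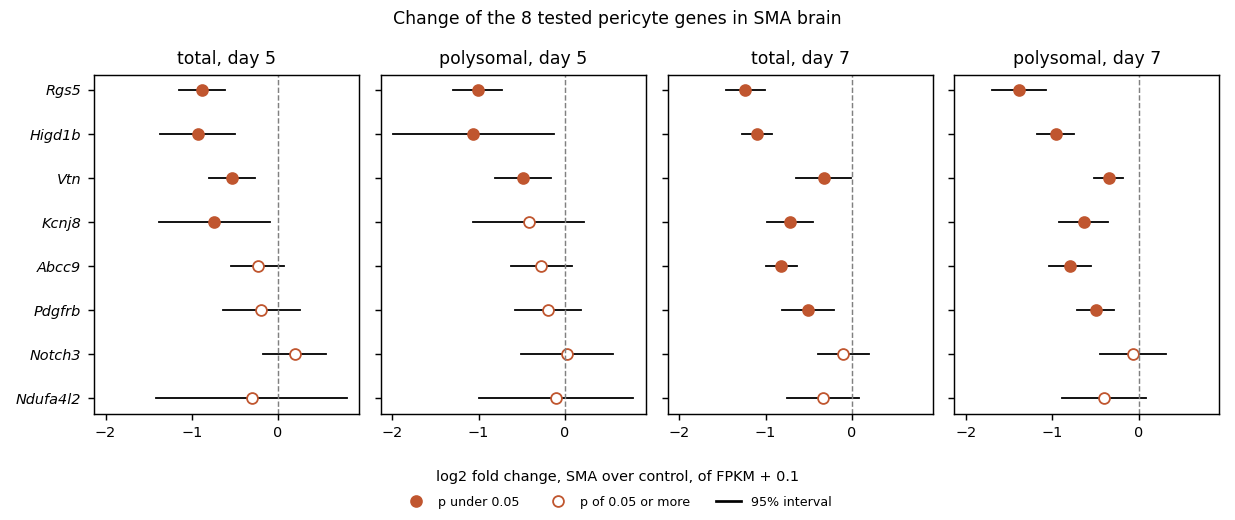
Log2 fold change of FPKM + 0.1, SMA over control (horizontal axes), of the 8 tested pericyte genes in the 4 comparisons, with filled circles for an unadjusted p under 0.05 in limma and lines for the 95% intervals. Rgs5 and Higd1b lie furthest below 0 in each panel, and the interval of Notch3 crosses 0 in all 4.

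Kcnj8 and Abcc9 are neighbours in the genome. In the deposited loci (GRCm38), Kcnj8 (chr6:142564939-142571356) and Abcc9 (chr6:142587862-142702274) lie 16505 bases apart on the minus strand. Rgs5 is at chr1:169655501-169695813, Vtn at chr11:78499091-78502324, Higd1b at chr11:102835849-102838040 and Ndufa4l2 at chr10:127514939-127522444, all on the plus strand. Anpep (chr7:79821803-79848210) and Notch3 (chr17:32113429-32166880) are on the minus strand. In a later Gencode annotation Ndufa4l2 itself spans only chr10:127514967-127517154 and Notch3 chr17:32120820-32166852, less than their deposited loci. The deposited loci of Abcc9, Notch3 and Ndufa4l2 each take in a second annotated gene. By the methods of the study all programs ran with default settings, which in TopHat and Cufflinks do not use the strand of the reads, so reads of these 3 genes and of their overlapping partners might not be told apart.

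Notch3 is a receptor of mural cells, and Notch signalling acts on DNA through the factor RBPJ, so the promoters were searched for the RBPJ core letters TGGGAA on both strands. RefSeq promoter windows of 300 bases around the start (GRCm38.p6) matched 6 of the 9 genes, Rgs5, Kcnj8, Abcc9, Vtn, Anpep and Notch3. The windows of the 4 among them that were lower throughout are shown 5′ to 3′ on the strand of the gene, with matches to TGGGAA or its reverse complement TTCCCA in capitals. They are chr1:169655251-169655550 for Rgs5, chr6:142571565-142571864 for Kcnj8, chr6:142702225-142702524 for Abcc9 and chr11:78498870-78499169 for Vtn.
Rgs5: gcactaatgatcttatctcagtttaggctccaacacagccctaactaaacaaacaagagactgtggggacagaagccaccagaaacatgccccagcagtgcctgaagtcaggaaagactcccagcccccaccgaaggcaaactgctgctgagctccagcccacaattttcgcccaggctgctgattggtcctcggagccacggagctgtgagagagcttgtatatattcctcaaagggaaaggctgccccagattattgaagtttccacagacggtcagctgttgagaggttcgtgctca
Kcnj8: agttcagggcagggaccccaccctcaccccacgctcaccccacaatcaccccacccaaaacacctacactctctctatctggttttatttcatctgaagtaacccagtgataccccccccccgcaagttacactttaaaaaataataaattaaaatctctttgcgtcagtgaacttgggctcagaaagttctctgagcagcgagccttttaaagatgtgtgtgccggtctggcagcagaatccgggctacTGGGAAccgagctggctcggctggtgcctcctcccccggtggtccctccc
Abcc9: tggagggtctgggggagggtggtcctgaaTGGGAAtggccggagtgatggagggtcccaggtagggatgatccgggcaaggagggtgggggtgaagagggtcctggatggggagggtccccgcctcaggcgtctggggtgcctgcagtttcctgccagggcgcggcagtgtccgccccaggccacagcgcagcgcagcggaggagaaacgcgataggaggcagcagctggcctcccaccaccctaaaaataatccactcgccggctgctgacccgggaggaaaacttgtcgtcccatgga
Vtn: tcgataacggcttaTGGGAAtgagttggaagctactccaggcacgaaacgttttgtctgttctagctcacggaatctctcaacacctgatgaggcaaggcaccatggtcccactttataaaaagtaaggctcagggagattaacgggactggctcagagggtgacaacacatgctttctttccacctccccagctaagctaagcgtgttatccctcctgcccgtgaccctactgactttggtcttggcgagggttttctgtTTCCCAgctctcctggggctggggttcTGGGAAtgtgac
Rgs5 held no match, Kcnj8 and Abcc9 1 each and Vtn 3, and neither Anpep nor Notch3 held one. Of 32851 promoters of this length, 25.6% hold the motif. The forkhead letters GTAAACA, present in 3.65% of promoters, were in none of the 6 windows, and the hypoxia-response letters ACGTG, present in 19.6%, were found only in that of Notch3. The letters of the 3 motifs do not contain each other, and a match is a description of letters and not of a binding site.

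Rgs5 encodes a regulator of G-protein signalling that shortens the signal of G-protein-coupled receptors, and is among the most used markers of brain pericytes. In day 5 total RNA the control libraries stood at 29.97 and 33.6 FPKM, the SMA libraries at 17.1 and 17.3 FPKM. In day 7 total RNA the control libraries stood at 32.1, 32.3 and 34.1 FPKM, the SMA libraries at 12.99, 15.8 and 13.1 FPKM. The groups lie far apart on both days, and the highest SMA library of total RNA (17.3 FPKM) was well below the lowest control library (29.97 FPKM). Polysomal control libraries read 40.5 and 41.3 FPKM on day 5, SMA libraries 21.7 and 18.9 FPKM. On day 7 the polysomal control values were 36.9, 42.2 and 42.7 FPKM, the SMA values 14.9, 18.1 and 13.7 FPKM. SMA levels were thus 54.1% (total) and 49.6% (polysomal) of control on day 5, and 42.5% and 38.3% on day 7. The log2 fold changes were -0.88 ± 0.09 (SE, limma adjusted p = 0.416) and -1.01 ± 0.09 (adjusted p = 0.141) on day 5. On day 7 they were -1.23 ± 0.09 (limma adjusted p = 0.0258) in total and -1.39 ± 0.12 (adjusted p = 0.0601) in polysomal RNA.

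Higd1b encodes a small membrane protein of the hypoxia-induced domain family and marks capillary pericytes of several organs. Total RNA of day 5 held 9.63 and 8.50 FPKM (control) and 4.39 and 5.02 FPKM (SMA). Total RNA of day 7 held 9.12, 9.04 and 9.46 FPKM (control) and 4.46, 4.07 and 4.20 FPKM (SMA). The 3 libraries of each genotype were close together on day 7, and the SMA values came to 46.1% of control (log2 fold change -1.10 ± 0.07, SE, limma adjusted p = 0.0189). In polysomal RNA the day 5 control libraries differed from each other, at 16.2 and 9.64 FPKM, and both stood above the SMA libraries at 6.31 and 5.58 FPKM. The log2 fold change there was -1.06 ± 0.31 (limma adjusted p = 0.392), the widest error of its 4 comparisons, and -0.69 without control replicate 1. Polysomal RNA of day 7 held 12.4, 10.7 and 11.9 FPKM (control) and 5.72, 6.27 and 5.81 FPKM (SMA), or 50.9% of control (-0.96 ± 0.08, adjusted p = 0.0593).

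Vtn encodes vitronectin, an adhesive protein of plasma and extracellular matrix that brain pericytes secrete. In control it was the most abundant of the 9 after Rgs5. The day 5 total values were 26.4 and 26.0 FPKM (control) and 19.2 and 17.1 FPKM (SMA), and the polysomal values 33.9 and 31.8 FPKM against 25.2 and 21.7 FPKM. The day 7 total values were 20.6, 19.8 and 23.7 FPKM (control) and 14.6, 17.5 and 19.2 FPKM (SMA). The genotypes do not overlap, but on day 7 the highest SMA and the lowest control library of total RNA were less than 1 FPKM apart. Polysomal values of day 7 were 28.2, 25.3 and 26.6 FPKM (control) and 19.7, 22.4 and 20.9 FPKM (SMA). SMA levels were 69.3% and 71.3% of control in total and polysomal RNA on day 5, and 79.97% and 78.6% on day 7. The larger day 5 margin depends on the length correction described at the end. With it the log2 changes were -0.37 and -0.35 on day 5 and -0.34 and -0.37 on day 7. Without it they were -0.53 and -0.49 on day 5 and -0.33 and -0.35 on day 7. The day 7 total change of -0.33 ± 0.13 (SE, log2, limma adjusted p = 0.52) was close to the threshold, and the call was lost without any 1 of 5 of the 6 day 7 libraries, all but SMA replicate 3. Without SMA replicate 1 the change was -0.22.

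Kcnj8 and Abcc9 encode the pore and the sulphonylurea receptor of the ATP-sensitive potassium channel of vascular mural cells, which links membrane potential to the energy state of the cell. Kcnj8 was at 2.13 and 2.09 FPKM in the control and at 1.02 and 1.47 FPKM in the SMA libraries of day 5 total RNA, and at 1.85, 1.57 and 1.74 FPKM against 0.90, 1.01 and 1.12 FPKM on day 7. SMA was at 59.0% of control on day 5 and 58.7% on day 7. The log2 fold changes were -0.74 ± 0.21 (SE, limma adjusted p = 0.551) and -0.72 ± 0.10 (adjusted p = 0.18). In polysomal RNA of day 5 Kcnj8 was at 3.04 and 2.16 FPKM (control) and at 1.84 and 1.94 FPKM (SMA), which did not pass the test (log2 difference -0.42, 95% interval -1.07 to 0.22). Without control replicate 1 the difference was -0.18, and without control replicate 2 it was -0.66 and passed. It fell in polysomal RNA of day 7, from 2.02, 1.84 and 2.37 FPKM to 1.22, 1.28 and 1.38 FPKM (-0.64 ± 0.11, limma adjusted p = 0.204). These are low levels, and the counting error behind them is unknown.

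Abcc9 was lower in SMA by a smaller margin on day 5 than on day 7. Its day 5 total values were 2.17 and 2.16 FPKM (control) and 1.80 and 1.85 FPKM (SMA), and its day 7 values 2.21, 2.31 and 2.27 FPKM against 1.23, 1.33 and 1.17 FPKM. SMA was therefore at 84.3% of control on day 5, where the difference did not pass the test (95% interval of the log2 difference -0.54 to 0.07), and at 54.9% on day 7 (log2 fold change -0.82 ± 0.07, SE, limma adjusted p = 0.0535). Polysomal control libraries read 2.51 and 2.34 FPKM on day 5, SMA libraries 1.93 and 2.05 FPKM. On day 7 the polysomal control values were 2.56, 2.48 and 2.77 FPKM, the SMA values 1.37, 1.63 and 1.37 FPKM (-0.80 ± 0.10, adjusted p = 0.154). In both fractions the SMA libraries of day 7 were the lowest. The day 5 margin depends on the correction for transcript length described at the end, with which the log2 changes of day 5 were -0.43 in total RNA, not passing the test, and -0.44 in polysomal RNA, passing it, and those of day 7 were -0.81 and -0.78. The other possible subunits, Kcnj11 and Abcc8, found mainly in neurons and endocrine cells, passed the test in none of the 4 comparisons. Kcnj11 averaged 4.74 FPKM in control and 4.17 FPKM in SMA in day 5 total RNA, and 4.49 and 4.97 FPKM on day 7.

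Pdgfrb, the receptor by which endothelial PDGF-B recruits pericytes, was in SMA at 87.5% (total) and 86.8% (polysomal) of control on day 5. Day 5 total RNA held 4.04 FPKM in each control library and 3.85 and 3.22 FPKM in the SMA libraries, and polysomal RNA 4.27 and 3.98 FPKM against 3.55 and 3.61 FPKM. These differences did not pass the test, with log2 differences of -0.19 (95% interval -0.64 to 0.26) and -0.20 (-0.58 to 0.18). Leaving out 1 library moved the first between -0.32 (without SMA replicate 1) and -0.068 (without SMA replicate 2). Day 7 total values were 4.26, 3.55 and 4.55 FPKM (control) and 2.72, 3.04 and 2.84 FPKM (SMA). Day 7 polysomal values were 4.55, 4.09 and 4.27 FPKM (control) and 2.89, 3.21 and 2.96 FPKM (SMA). All SMA libraries of day 7 were lower than all control libraries, at 69.6% and 70.2% of control. The log2 fold changes were -0.50 ± 0.12 (SE, limma adjusted p = 0.327) and -0.50 ± 0.08 (adjusted p = 0.202).

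Notch3, the Notch receptor of mural cells, was in no comparison lower in every SMA library than in every control library. In day 5 total RNA both SMA libraries (4.99 and 4.56 FPKM) were above both control libraries (4.14 and 4.16 FPKM). With 2 libraries a group, 25.1% of all tested genes also showed this. With the length correction described at the end, the log2 change of Notch3 there was -0.010, against 0.20 without it. In the other comparisons the genotypes overlapped. The group means of day 5 polysomal RNA were 4.41 FPKM in control and 4.51 FPKM in SMA, and those of day 7 were 3.76 and 3.52 FPKM in total RNA and 4.27 and 4.1 FPKM in polysomal RNA. The log2 difference in day 7 total RNA was -0.10, with a 95% interval from -0.39 to 0.20, and lay between -0.19 (without SMA replicate 2) and -0.025 (without SMA replicate 1) when 1 library was left out. The corresponding intervals of Rgs5 (-1.46 to -1.01) and Abcc9 (-0.999 to -0.63) lie wholly below that of Notch3. The change of Vtn there (-0.33) lies within the interval of Notch3, and the interval around the change of Pdgfrb (-0.50) overlaps it. The difference between Notch3 and these genes was not tested.

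Ndufa4l2 encodes a mitochondrial protein related to a respiratory chain subunit and is enriched in pericytes. Its libraries overlapped in all 4 comparisons and no test was passed. In total RNA of day 5 the control libraries read 1.97 and 1.46 FPKM, the SMA libraries 1.0 and 1.82 FPKM. On day 7 they read 2.17, 1.93 and 2.15 FPKM and 1.51, 2.07 and 1.38 FPKM. The log2 difference of day 7 was -0.33 (95% interval -0.75 to 0.08), an interval that holds both 0 and the change of Kcnj8. Without SMA replicate 2 the difference was -0.50 and passed the test, and so did that of day 7 polysomal RNA without control replicate 2 (-0.56).

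Anpep encodes aminopeptidase N, a membrane peptidase found on pericytes and also on myeloid cells. Day 5 total values were 0.64 and 0.71 FPKM (control) and 1.06 and 0.72 FPKM (SMA), and polysomal values 0.30 and 0.36 FPKM against 0.51 and 0.69 FPKM. Here both SMA libraries were the higher ones in either fraction, which 25.1% (total) and 23.9% (polysomal) of all tested genes also showed. On day 7 the libraries overlapped, from 0.82 to 1.18 FPKM in control and 1.03 to 1.22 FPKM in SMA in total RNA. In day 7 polysomal RNA 1 SMA library stood apart, at 3.19 FPKM against 1.06 and 1.22 FPKM in the other two and 0.97 to 1.16 FPKM in control. Fitted without the limit on low values, Anpep passed the test in none of the 4 comparisons (smallest limma adjusted p = 0.544, in day 5 polysomal RNA).

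The polysomal and the total RNA of a gene were then compared, because the study asked about translation. Translation efficiency (TE) was read as the change of a gene in polysomal RNA minus its change in total RNA. None of the 8 genes passed this test in limma at an unadjusted p under 0.05 on either day, against 2.32% of all tested genes on day 5 and 2.07% on day 7. For Rgs5 the TE difference was -0.13 (log2, 95% interval -0.46 to 0.20) on day 5 and -0.15 (-0.51 to 0.20) on day 7. For Higd1b it was -0.13 (-1.04 to 0.78) and 0.14 (-0.08 to 0.35). The day 7 intervals of the 8 genes are narrower for Pdgfrb (-0.30 to 0.31) and Abcc9 (-0.25 to 0.28) than for Ndufa4l2 (-0.66 to 0.52).

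In control brain itself some of these transcripts were more abundant in polysomal RNA. On day 5, 2 of the 8 genes were higher there than in total RNA, Rgs5 (log2 difference 0.36 ± 0.08, SE) and Vtn (0.33 ± 0.06), where 12.3% of all tested genes were higher. On day 7, 4 were higher, Rgs5 (0.30 ± 0.07), Vtn (0.32 ± 0.08), Higd1b (0.34 ± 0.07) and Abcc9 (0.19 ± 0.07), where 14.8% of all genes were. With the replicate number as a block, 3 remained on day 7, and Abcc9 was lost. None passed 0.05 after adjustment in limma, and the day 7 number dropped to 1 without control replicate 1 and to 2 without replicate 2 or 3. Pdgfrb averaged 4.12 FPKM in total and 4.30 FPKM in polysomal RNA of day 7, which did not pass the test. Without the limit on low values, Anpep was lower in polysomal RNA on day 5 (-0.85 ± 0.19, limma adjusted p = 0.227). On day 7 it did not pass the test.

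Between the days, few of these genes passed the test in control brain. From day 5 to day 7 Vtn (log2 difference -0.30 ± 0.09, SE) and Kcnj8 (-0.28 ± 0.10) fell in total RNA, 2 of the 8 genes against 20.1% of all tested genes, and Vtn alone fell in polysomal RNA (-0.30 ± 0.07), against 21.4%. Leaving out any 1 of the 5 control libraries lowered the number in total RNA from 2, to 0 without early control replicate 2 or late control replicate 2 and to 1 without each of the others. In polysomal RNA the number was 0 without early control replicate 1 and 2 without early control replicate 2. Anpep, fitted without the limit on low values, rose in polysomal RNA (1.42 ± 0.19, limma adjusted p = 0.0626). Rgs5 averaged 31.8 ± 2.57 FPKM (SD, n = 2) on day 5 and 32.8 ± 1.07 FPKM (n = 3) on day 7 in control total RNA. In SMA it averaged 17.2 ± 0.15 FPKM (n = 2) and 13.96 ± 1.59 FPKM (n = 3).

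The difference between the days in the SMA change was tested as an interaction. In total RNA Abcc9 (-0.58 ± 0.12, SE, log2, limma adjusted p = 0.486) and Rgs5 (-0.35 ± 0.13, adjusted p = 0.486) passed the unadjusted threshold, both with larger losses on day 7, as did 5.60% of all genes in this direction. In polysomal RNA Abcc9 (-0.53 ± 0.14, limma adjusted p = 0.287) and Pdgfrb (-0.30 ± 0.12, adjusted p = 0.348) passed, against 6.86% of all genes. The call for Rgs5 was lost without any 1 of 6 of the 10 replicates, among them early control replicate 1 (-0.27), and that for Pdgfrb without any 1 of 7, among them early control replicate 2 (-0.25). Abcc9 kept its call in both fractions without each replicate, but all 4 calls were lost with the length correction, where the differences were -0.38 (total) and -0.34 (polysomal) for Abcc9, -0.29 for Rgs5 and -0.20 for Pdgfrb. With that correction Higd1b passed instead in total RNA (-0.40, limma adjusted p = 0.738, against -0.17 without it). The calls of Rgs5 and Pdgfrb were also lost with the replicate block.

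Next, Rgs5 was set against each of the other 8 genes by the ratio of FPKM values within a library, which does not depend on how the library was scaled. In control the ratio of Rgs5 to Vtn was above 1 in all 10 libraries (1.14 to 1.67). In SMA it was above 1 in 1 of 10 libraries (0.653 to 1.01), and Vtn was the more abundant gene in the other 9. The ratio of Rgs5 to Pdgfrb averaged 8.04 ± 0.91 (SD, n = 3) in control and 4.86 ± 0.30 (n = 3) in SMA in day 7 total RNA. In all 4 comparisons the ratios of Rgs5 to Pdgfrb, Abcc9, Vtn, Notch3 and Anpep were lower in every SMA than in every control library. Those to Kcnj8 and to Ndufa4l2 were so in 3 of 4. The ratio to Higd1b was so only in day 7 polysomal RNA, where it averaged 3.50 ± 0.49 in control and 2.61 ± 0.27 in SMA. In day 7 total RNA that ratio averaged 3.57 ± 0.04 in control and 3.30 ± 0.51 in SMA and the libraries overlapped. The ratios were not corrected for transcript length. On day 5 the log2 changes in total and polysomal RNA were -0.88 and -1.01 for Rgs5, and -0.93 and -1.06 for Higd1b. With the length correction described at the end they were -0.93 and -1.025 for Rgs5, and -0.72 and -0.91 for Higd1b. These are 32 exact two-sided permutation tests, which cannot go below p = 0.333 with 2 against 2 or p = 0.1 with 3 against 3. The smallest adjusted p of these exact tests was 0.213, so none passes 0.05, and the ratios share Rgs5 and are not independent. Rgs5 itself was lower without overlap in all 4 comparisons, so its ratio to an unchanged gene would be lower as well. The share of all tested genes with such a ratio is not given, so these counts show nothing particular to pericyte genes.

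**Figure D3:**
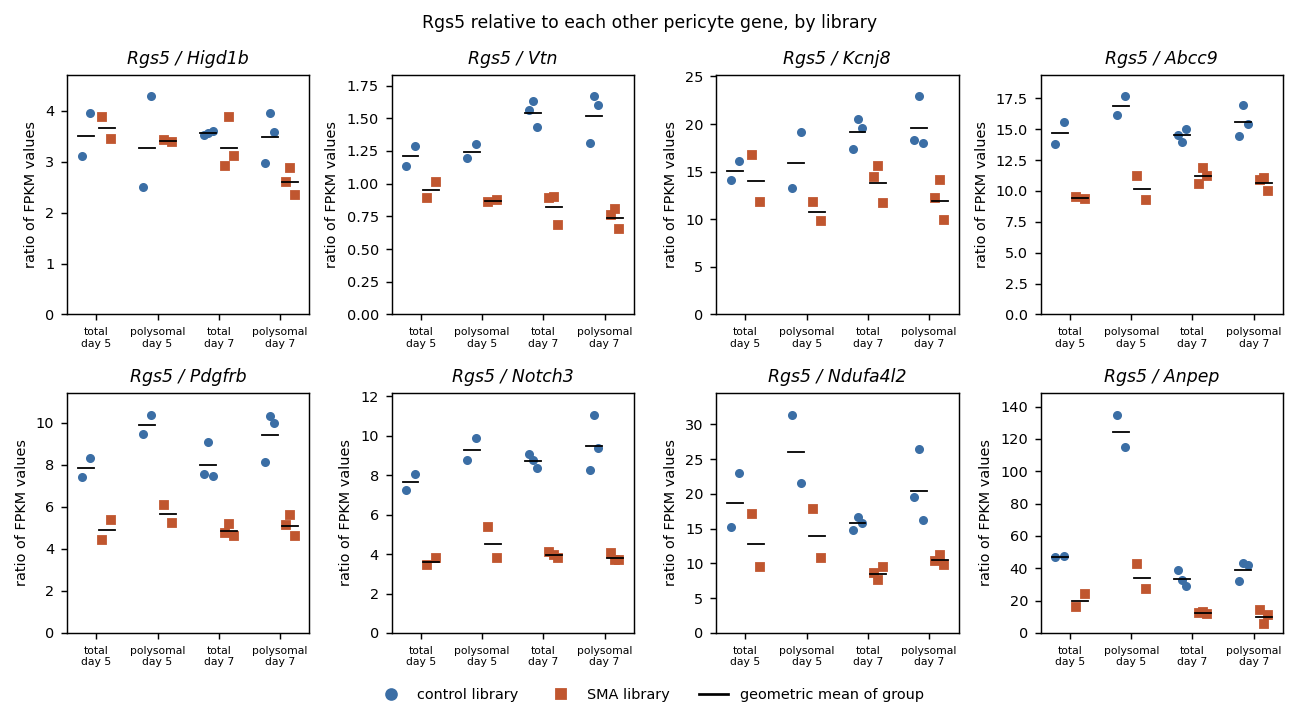
Ratio of the FPKM of Rgs5 to that of each other pericyte gene (vertical axes, starting at 0) in each library, with circles for control, squares for SMA and bars for geometric means of the groups. The ratio to Higd1b overlaps between genotypes in 3 of 4 groupings, and the ratio to Vtn lies between 1.14 and 1.67 in control and between 0.653 and 1.01 in SMA.

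Likeness to Rgs5 was also ranked over the whole table, by the root mean square distance between the 4 log2 fold changes of a gene and those of Rgs5. Higd1b was the closest of 15246 genes, at a distance of 0.23. This rank uses the day 5 polysomal change of Higd1b, which lay between -1.43 and -0.69 when 1 library was left out. Of the other pericyte genes, Kcnj8 had rank 106, Abcc9 rank 151, Vtn rank 329, Pdgfrb rank 364, Ndufa4l2 rank 574 and Notch3 rank 6965. The 9 genes after Higd1b were Lypd2, Fli1, Sox17, Mfsd7c, Clec14a, Top2a, Pbk, Prnd and Tie1, at distances from 0.25 to 0.30. Fli1 and Sox17 are transcription factors of endothelial cells, Tie1 is an endothelial receptor kinase, and Top2a is a topoisomerase of dividing cells. Tie1 had log2 fold changes of -1.23 and -1.33 in total and polysomal RNA on day 5 and of -1.20 and -1.02 on day 7.

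A wider list of 20 mural cell genes, of which 17 were tested, did not move in 1 direction. In the order day 5 total, day 5 polysomal, day 7 total and day 7 polysomal, 3, 1, 4 and 4 fell and 2, 2, 1 and 2 rose. Over all tested genes the share that rose was 4.36%, 5.65%, 4.84% and 5.35%, and the share that fell is given above. Foxf2 and Tbx18, 2 of the 17, were lower in every SMA library in all 4 comparisons, against 1.07% of all tested genes. Slc6a20a was higher in every SMA library in all 4, against 1.17%. Foxf2, a forkhead factor needed in brain pericytes, fell in all 4 (from 1.90 to 1.08 FPKM in day 7 total RNA, log2 fold change -0.79, limma adjusted p = 0.344). Slc6a20a, an amino acid transporter, rose in all 4 (from 4.02 to 6.30 FPKM, 0.65, adjusted p = 0.431). Rgs4, the most abundant gene of the list, is also made by neurons, and averaged 52.2 FPKM in control and 46.6 FPKM in SMA, which did not pass the test. The summed FPKM of the 20 genes was between 96.2% and 100.2% of control, and the genotypes overlapped in each comparison. Rgs4 weighs most in this sum. The sum of the 9 pericyte genes did not overlap, at 76.7, 75.2 and 83.2 FPKM in control against 42.6 to 50.0 FPKM in SMA in day 7 total RNA.

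Genes of the signals that recruit and hold pericytes (24 genes, 22 tested) changed in part. In the same order 4, 5, 6 and 6 fell and 1, 2, 2 and 2 rose. Over all tested genes 3.89%, 6.82%, 4.70% and 5.38% fell and 4.36%, 5.65%, 4.84% and 5.35% rose. Eng, Tek, Tgfbr2 and Tie1, 4 of the 22, were lower in every SMA library in all 4 comparisons, against 1.07% of all tested genes. Tek, the endothelial receptor of the angiopoietins, fell from 4.36 to 1.27 FPKM in day 5 total RNA (log2 fold change -1.74, limma adjusted p = 0.551) and from 3.28 to 0.967 FPKM in day 7 total RNA (-1.65, adjusted p = 0.0404). Angpt2, a ligand of that receptor that antagonises Angpt1, was higher in every SMA library in all 4 comparisons, as were 1.17% of all tested genes, and rose from 0.953 to 1.73 FPKM in day 7 total RNA (0.78, limma adjusted p = 0.254). Cdh2, the cadherin of the junction between pericyte and endothelium, was the most abundant gene of the list. In RNA from whole brain it cannot be assigned to these cells. It averaged 45.4 FPKM in control and 49.2 FPKM in SMA in day 7 total RNA and did not pass the test. In day 5 polysomal RNA it rose from 39.4 to 50.1 FPKM (0.35, limma adjusted p = 0.386).

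The summed level of endothelial markers was lower in SMA too. It was at 64.6% (total) and 62.8% (polysomal) of control on day 5, and at 82.5% and 78.3% on day 7. Of 22 endothelial markers, all tested, 13, 10, 12 and 13 fell and 1, 1, 2 and 2 rose in the same order. Over all tested genes 3.89%, 6.82%, 4.70% and 5.38% fell and 4.36%, 5.65%, 4.84% and 5.35% rose. Lower in every SMA library in all 4 comparisons were 10 of the 22, against 1.07% of all tested genes. In day 5 total RNA the summed FPKM of the 22 was 246.6 and 246.9 in the control and 163 and 156 in the SMA libraries. In polysomal RNA it was 328 and 272 against 200.4 and 176. On day 7 it was 193, 212 and 229 against 172, 180.0 and 171 in total RNA, and 242, 239 and 260.3 against 195, 200.1 and 185 in polysomal RNA. These sums do not overlap between genotypes in any comparison. Like the sums of the other lists, they were not corrected for transcript length, with which day 5 changes varied as described at the end. The difference between the days in these sums was not tested. None of the 22 was listed at 0 in any library. Cldn5, a tight junction protein of the blood-brain barrier and the most abundant of the 22, fell from 48.3 to 18.7 FPKM in day 5 total RNA (log2 fold change -1.36, limma adjusted p = 0.318) and from 30.2 to 14.6 FPKM on day 7 (-1.03, adjusted p = 0.101). Ly6a rose in all 4, from 3.23 to 10.7 FPKM in day 7 total RNA (1.69, adjusted p = 0.0636). Without either early control library the number of endothelial genes that fell in day 5 total RNA went from 13 to 4, and that in polysomal RNA went from 10 to 5 without early control replicate 1, to 6 without early SMA replicate 1 and to 4 without early SMA replicate 2. The part of endothelial cells in the changes of the pericyte genes was not tested.

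The summed levels of smooth muscle and of perivascular fibroblast markers were lower too, while their single genes varied. The shares of all tested genes that fell and rose are those given beside the endothelial markers. Of 13 smooth muscle genes 6 were tested, and 0, 2, 4 and 5 fell, while 1 rose in day 7 polysomal RNA and none in the other comparisons. Their summed FPKM lay at 69.9% to 78.6% of control and did not overlap in any comparison, with 23.1 to 26.1 FPKM in control and 13.9 to 21.1 FPKM in SMA in day 7 total RNA. The median log2 change of the 6 was -0.18, -0.08, -0.33 and -0.43. The most abundant gene was Myl9, a myosin light chain, which made up much of the sum and fell from 13.8 to 8.21 FPKM in day 7 total RNA (log2 fold change -0.81, limma adjusted p = 0.492). Of 10 fibroblast genes 9 were tested, and 4, 3, 5 and 5 fell and 1, 0, 1 and 1 rose. Their sum was at 69.1% to 84.2% of control, without overlap, with 119.99 to 121.5 FPKM in control and 73.3 to 90.3 FPKM in SMA in day 7 total RNA. The collagen gene Col1a2, the most abundant of this list over all libraries, fell from 29.3 to 15.8 FPKM there (-0.91, limma adjusted p = 0.232). Col1a1 stood higher in control there and fell from 34.9 to 14.4 FPKM (-1.29, adjusted p = 0.128). Dpep1 of this list was listed at 0 in 3 control polysomal libraries. The part of these cells in the changes of the pericyte genes was not tested.

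Lists for other cells and states were read in the same way. Over all tested genes between 3.89% and 6.82% fell and between 4.36% and 5.65% rose. A count of 1 in lists this short says little beside these shares. The summed FPKM of 7 oligodendrocyte lineage genes, 7 microglial genes, 10 hypoxia-response genes and 7 erythroid genes overlapped between genotypes in all 4 comparisons. In day 7 total RNA Mbp, the most abundant oligodendrocyte gene, averaged 141 FPKM in control and 171 FPKM in SMA, and the erythroid Hba-a1 2225 and 2043 FPKM. Bnip3, the most abundant hypoxia-response gene, averaged 48.4 and 51.0 FPKM, and none of these 3 genes passed the test there. Of 6 tested erythroid genes 1, 0, 0 and 1 fell and none rose, and their median log2 change was below 0 in each comparison (-0.20, -0.57, -0.26 and -0.37). The microglial genes went both ways. In the order used above 1, 1, 1 and 0 of 7 fell and 0, 0, 3 and 2 rose. In day 7 total RNA the complement gene C1qa rose from 14.8 to 22.96 FPKM (log2 fold change 0.62, limma adjusted p = 0.299), and the purinergic receptor gene P2ry12 fell from 22.99 to 17.3 FPKM (-0.41, adjusted p = 0.492). Astrocyte genes summed to 125.1% to 127.5% of control, without overlap, in 3 comparisons, and to 111.7%, with overlap, in day 5 polysomal RNA. Of the 7 genes only 2, 0, 1 and 1 rose and none fell, with medians of the log2 change between 0.03 and 0.15. Aldoc led this list, was its only gene called in day 7 total RNA and rose there from 119.9 to 204.6 FPKM (0.77, adjusted p = 0.132). Choroid plexus genes summed to 184% and 188% of control on day 7, where 3 of 4 tested genes rose in each fraction, and overlapped on day 5, where none was called. Neuronal genes overlapped in 3 comparisons, and in day 5 polysomal RNA their sum was higher in SMA, where Tubb3 was listed at 0 in both control libraries. The neuronal Stmn2 averaged 1431 and 1433 FPKM in day 7 total RNA, so that the tissue held the brain transcripts its label calls for. The part of astrocytes and choroid plexus in the changes of the pericyte genes was not tested.

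**Figure D4:**
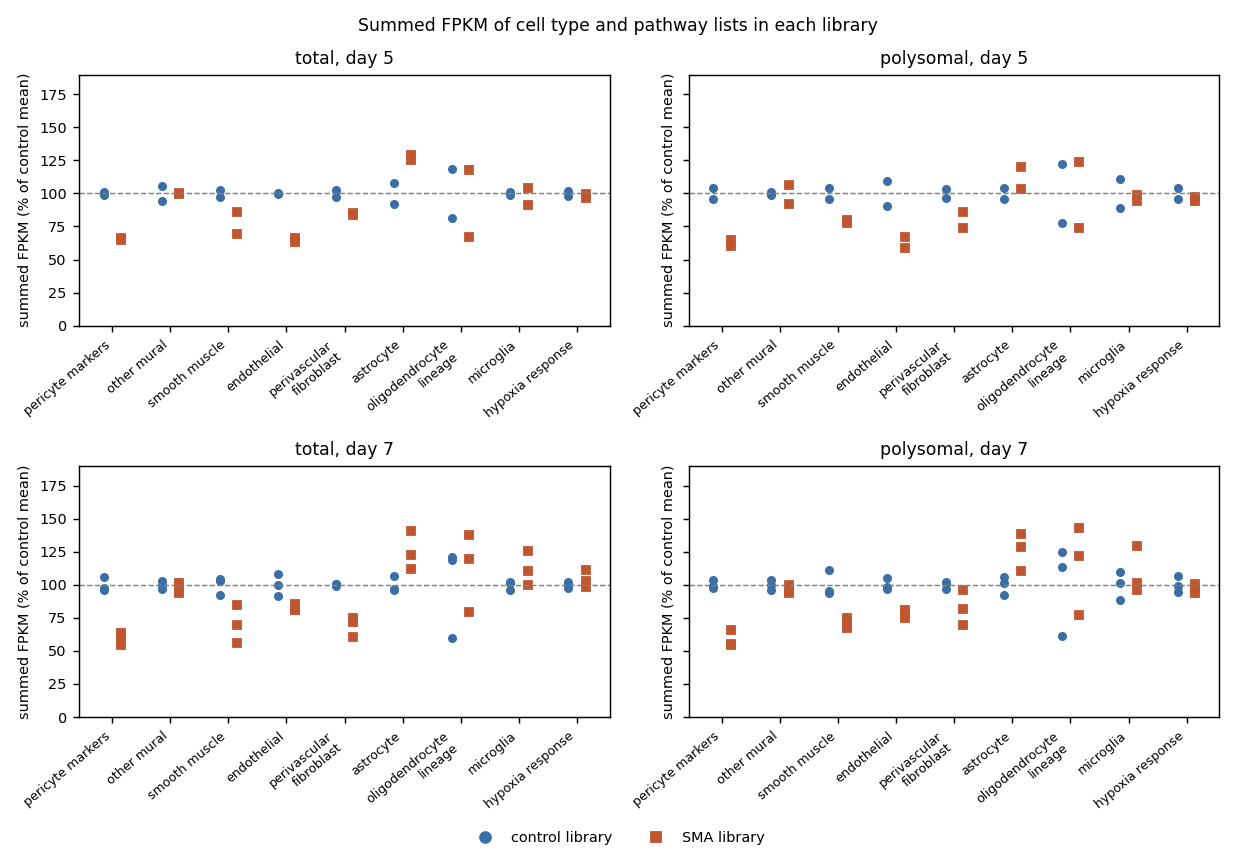
Summed FPKM of 9 gene lists in each library as a percentage of the mean of the control libraries of the same fraction and day (vertical axes, starting at 0), with circles for control and squares for SMA and a dashed line at 100. The pericyte, smooth muscle, endothelial and perivascular fibroblast lists lie below the control libraries in all 4 panels, and the other mural, microglial, oligodendrocyte and hypoxia-response lists overlap them.

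The early comparisons rest on few libraries. The number of pericyte genes that fell in day 5 total RNA went from 4 to 1 without early control replicate 1 and to 2 without early control replicate 2, and that in day 5 polysomal RNA went from 3 to 1 without early SMA replicate 2. In total RNA the calls of Vtn and Kcnj8 were lost without either control library and that of Higd1b without early control replicate 1. In polysomal RNA that of Higd1b was lost without either SMA library and that of Vtn without early control replicate 1 or early SMA replicate 2. Rgs5 kept its call in both fractions without each library. On day 5 the log2 fold changes of all genes varied with transcript length. Genes about as long as Higd1b (735 bases) had a median of -0.29 in day 5 total RNA, and those about as long as Notch3 (8016 bases) one of 0.20. With each library corrected for length, the day 5 total changes were -0.72 for Higd1b and -0.93 for Rgs5, which both passed the test. Those of Vtn (-0.37) and Kcnj8 (-0.67) passed it too, but close to the threshold. Those of Abcc9 (-0.43) and Pdgfrb (-0.32) did not pass, and were -0.23 and -0.19 without the correction. That of Notch3 was -0.010.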

How the data were processed

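Per the labels and the methods of the study, the authors prepared stranded total RNA libraries, aligned the reads to GRCm38.p4 with TopHat2 2.0.14 and computed the FPKM of each gene with Cufflinks 2.2.1, with default settings. These FPKM values were deposited as 1 table, with no counts, so the depth and counting error of single values are unknown. Log2(FPKM + 0.1) was analysed with limma 3.58.1 in R 4.3.3 (lmFit, eBayes with a trend) in the 15247 of 45700 genes that averaged 1 FPKM or more, calling a gene at an unadjusted p under 0.05, the threshold of the study, and the code was tested on simulated data. Each fraction and stage was fitted separately. TE and stage differences were interactions. CuffDiff and Xtail, used in the study, need reads or counts and were not run. Labels give replicate numbers but no statement that both fractions of a number came from 1 brain. The pericyte genes, the other lists and the rule for named genes (each list's most abundant gene and up to 3 with large repeated changes, and the 10 most like Rgs5) were chosen with earlier results of these data known; Tubb3, Dpep1 and the genes counted as called were named after their values were seen. Alternatives were other pseudocounts, filters, scalings, thresholds, variance models, a length correction, the replicate block and leaving out each replicate number (both fractions of it where a comparison uses both). Fold changes are on the log2(FPKM + 0.1) scale, which understates changes of low genes.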

Additional observations from a re-analysis of the deposited data

Results flagged for a closer look

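The change in SMA differed between the stages for 3 pericyte genes, by the test of the interaction of genotype and stage in limma at an unadjusted p under 0.05. In total RNA the day 7 change minus the day 5 change was -0.58 (log2) for Abcc9 and -0.35 for Rgs5, where 5.60% of all tested genes passed in this direction. In polysomal RNA it was -0.53 for Abcc9 and -0.30 for Pdgfrb, against 6.86% of all tested genes. No adjusted p was under 0.05. With the length correction none of these 4 calls was kept and Higd1b passed in total RNA (-0.40), and with the replicate block only those of Abcc9 were. The call for Rgs5 was lost without any 1 of 6 of the 10 replicates and that for Pdgfrb without any 1 of 7.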

How the results depend on the processing

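The count of 6 pericyte genes lower in every SMA library in all 4 comparisons, whose alternatives were chosen after seeing the data, was 6 with equal medians, quantile normalization and the length correction, and 3 under the filter at a mean of 5 FPKM, where only 3 of the genes were tested. A pseudocount of 1, no filter and leaving out a replicate (6 to 6) cannot lower this count by their construction, so they say nothing of its stability. 

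The numbers of called genes moved as follows. Adjusted p under 0.05 left 0 in each comparison except 2 in day 7 total RNA. An unadjusted p under 0.01 left 1 in day 5 polysomal RNA, 1 for each stage difference, 2 for the fractions of day 7 control, and 0 for the fractions of day 5 control and for both comparisons of the days in control. The filter at 5 FPKM left 3 in total and 3 in polysomal RNA of day 7, 1 and 0 for the stage differences in total and polysomal RNA, and 1 for the days in control total RNA. One model over all libraries gave 5 in day 5 polysomal RNA and 1 for the days in control total RNA. The stage difference was 1 in total RNA with equal medians, and 1 in polysomal RNA with quantile normalization. For the fractions of day 7 control the number was 6 with quantile normalization, against 4 in the main fit. The length correction gave 1 and 0 for the stage differences in total and polysomal RNA. For the days in control total RNA the number was 1 with a pseudocount of 0.01, no filter, quantile normalization and the length correction, and for polysomal RNA 2 with no filter.

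The labels give control and SMA, and total and polysomal, libraries the same replicate numbers. Over all tested genes the deviations of same-numbered samples correlated between -0.090 and 0.109, so the samples were taken to share only a number. Over 9779 protein-coding genes with a mean of 5 FPKM or more these correlations were 0.122 to 0.539 between total and polysomal RNA and -0.302 to 0.195 between control and SMA, so that the answer for the fractions depends on the genes used. With the replicate block the numbers were 3, 3, 6 and 6 for SMA against control, 0 for TE on both days, 2 and 3 for the fractions of day 5 and day 7 control, 1 and 1 for the stage differences and 1 for the days in control total RNA. The block with the length correction gave 2 in day 5 total RNA, 1 and 0 for the stage differences, 1 for the fractions of day 5 control, and 1 and 0 for the days in control total and polysomal RNA.

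Leaving out each replicate gave 1 to 4 in day 5 total and 1 to 4 in day 5 polysomal RNA, 5 to 6 and 6 to 7 on day 7, 1 to 3 for both stage differences, 1 to 2 for the fractions of day 7 control, 0 to 1 and 0 to 2 for the days in control total and polysomal RNA, and 0 to 0 for TE. The fractions of day 5 control could not be fitted without either control replicate.

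The median log2 change of the tested pericyte genes was -0.88, -1.01, -1.10 and -0.96 under the filter at 5 FPKM (day 5 total, day 5 polysomal, day 7 total, day 7 polysomal). In the last 3 of these it was -0.25, -0.42 and -0.41 with a pseudocount of 1, and -0.27, -0.50 and -0.50 with no filter, and in day 5 polysomal RNA it was -0.40 with quantile normalization. Leaving out each replicate gave -0.58 to -0.38, -0.43 to -0.30, -0.69 to -0.55 and -0.64 to -0.52.

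The sign turned only for Notch3 and Ndufa4l2, neither of which passed the test with all libraries. Notch3 was at -0.010 in day 5 total RNA and at -0.15 in day 5 polysomal RNA with the length correction, with or without the block, and at -0.029 there with quantile normalization. Ndufa4l2 was at 0.073 in day 5 polysomal RNA with the length correction, with or without the block. Leaving out each replicate gave 0.13 to 0.26 (day 5 total), -0.13 to 0.18 (day 5 polysomal) and -0.20 to 0.00093 (day 7 polysomal) for Notch3, and -0.71 to 0.10 (day 5 total) and -0.38 to 0.16 (day 5 polysomal) for Ndufa4l2. The cause of these shifts was not tested.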
